A study of Mus musculus with 6 samples.

Results

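Microglia and macrophage genes are described here in whole eyes of mice sampled late and early in the light phase. The group holds 10 genes (Cd68, Aif1, Csf1r, C1qa, C1qb, C1qc, Cx3cr1, Lyz2, Tyrobp and Fcer1g) of 22692 gene symbols measured, and its members were listed by name. Eyes for RNA sequencing were collected 9.0 h into the light phase or 1.5 h into it, and 3 libraries represent each time. All mice were C57BL/6J, an inbred laboratory strain, and per the labels each library came from pooled total RNA of 5 females aged 4 weeks. No allele, agent or treatment is given for either time. Whether replicate pools shared animals is not stated, so the tests reflect library-to-library spread, part of which may be technical.

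Microglia are the resident macrophages of the retina, and other macrophages live in the uvea, the cornea and the vessel-rich coats of the eye. They depend on the receptor Csf1r for survival, sense neurons through Cx3cr1, and pass signals from many surface receptors through the small membrane adaptors Tyrobp and Fcer1g. They also make C1q, the recognition molecule of the classical complement pathway, which tags debris and synapses for uptake. Retinal microglia are known for surveying the synaptic layers at rest and for taking up debris after injury. In a whole-eye library, fewer cells of a type and less RNA per cell cannot be told apart.

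Total reads, inferred from the spacing of low values, were about 24000000 to 31800000 per library at 9.0 h, against 28900000, 12800000 and 13000000 in 1.5 h replicates 1 to 3. Photoreceptor and lens genes mark the tissue: Sag, the arrestin of photoreceptors, had 780.2 to 953 RPKM at 9.0 h and 847 to 1038 RPKM at 1.5 h, where RPKM is a read count scaled to gene length and to library depth. Some libraries stood apart. Lens markers took 38.7% to 42.3% of summed RPKM at 9.0 h, and at 1.5 h 30.7% in replicate 1, 36.2% in replicate 2 and 40.6% in replicate 3. In 1.5 h replicate 3, red cell and platelet markers summed to 377 RPKM, against 87.1 to 121 RPKM at 9.0 h and 45.6 and 55.8 RPKM in the other 1.5 h libraries, and 4 Y-linked genes were listed at 0.126 to 0.78 RPKM there and at 0 in the other 5 libraries, although the labels give females. Xist, expressed from the inactive X chromosome, had 13.3, 15.5 and 14.1 RPKM at 9.0 h and 39.3, 27.6 and 19.7 RPKM at 1.5 h (limma adjusted p = 0.125). It passed with the replicate number as a block (limma adjusted p = 0.0443) and without 1.5 h replicate 1 (limma adjusted p = 0.00051).

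The start regions of 4 members are shown because they hold the PU box, the core sequence bound by Spi1 (PU.1), the transcription factor that defines the myeloid lineage. Each window runs from 250 bases before the gene start to 50 bases after it, is read 5′ to 3′ along the gene, and comes from RefSeq on build GRCm38.p6, whereas the submitters' processing notes list mm9 for the files. Capitals mark the motif, searched as GAGGAA and, on the other strand, as TTCCTC, with no other motif searched.
C1qb, chr4:136886151-136886450, minus strand: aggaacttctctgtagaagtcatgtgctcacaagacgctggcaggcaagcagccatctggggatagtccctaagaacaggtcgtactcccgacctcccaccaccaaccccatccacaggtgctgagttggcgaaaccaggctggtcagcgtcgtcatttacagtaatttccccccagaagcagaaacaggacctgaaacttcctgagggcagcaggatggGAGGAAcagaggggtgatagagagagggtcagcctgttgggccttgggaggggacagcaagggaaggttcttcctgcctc
C1qc, chr4:136892865-136893164, minus strand: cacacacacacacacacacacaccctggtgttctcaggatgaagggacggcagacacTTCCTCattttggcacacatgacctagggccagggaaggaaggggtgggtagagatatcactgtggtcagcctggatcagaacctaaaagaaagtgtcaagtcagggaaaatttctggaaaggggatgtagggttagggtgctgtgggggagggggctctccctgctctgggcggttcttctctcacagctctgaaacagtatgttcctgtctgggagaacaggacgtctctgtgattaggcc
Cd68, chr11:69666121-69666420, minus strand: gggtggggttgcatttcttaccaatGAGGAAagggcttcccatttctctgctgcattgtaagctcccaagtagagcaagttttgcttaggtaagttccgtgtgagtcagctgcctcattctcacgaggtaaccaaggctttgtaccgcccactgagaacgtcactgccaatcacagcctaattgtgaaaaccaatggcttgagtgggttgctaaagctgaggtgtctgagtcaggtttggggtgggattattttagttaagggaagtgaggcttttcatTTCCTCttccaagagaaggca
Aif1, chr17:35176003-35176302, minus strand: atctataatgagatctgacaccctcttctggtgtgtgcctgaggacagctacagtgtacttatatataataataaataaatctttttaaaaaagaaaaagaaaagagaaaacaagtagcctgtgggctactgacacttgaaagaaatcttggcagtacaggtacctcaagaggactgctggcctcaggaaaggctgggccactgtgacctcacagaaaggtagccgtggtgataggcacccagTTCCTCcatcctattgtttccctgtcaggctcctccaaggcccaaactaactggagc
RefSeq windows of 7 members were searched, and those of Csf1r, C1qa and Tyrobp were not. The motif was held by 4 of the 7 and was absent from the windows of Cx3cr1, Lyz2 and Fcer1g. Of 32851 windows of all genes, 9289 (28.3%) held it, so a match is a description of these letters only. C1qb, C1qc and C1qa are direct neighbours on chromosome 4.

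The windows of Lyz2 and of its neighbour Lyz1 are shown because the genes are close copies, here compared around their starts. The stretches run from 100 bases before the gene start to 50 bases after it, and capitals in Lyz1 mark the 9 of 150 positions that differ from Lyz2. Over the whole window of 300 bases, compared position by position without gaps, 201 positions were identical.
Lyz2, chr10:117282223-117282372, minus strand: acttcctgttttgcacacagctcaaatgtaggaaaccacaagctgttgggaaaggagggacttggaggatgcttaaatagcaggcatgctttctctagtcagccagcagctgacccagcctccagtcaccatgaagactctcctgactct
Lyz1, chr10:117292819-117292968, minus strand: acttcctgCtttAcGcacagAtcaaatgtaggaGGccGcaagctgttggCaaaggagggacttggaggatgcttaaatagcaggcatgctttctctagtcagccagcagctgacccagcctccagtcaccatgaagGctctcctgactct
The transcripts of the 2 genes were 95.8% identical over 1264 nt, so reads may have been split between them and the Lyz2 value is uncertain. Lyz1 itself was listed low, at 2.43, 3.32 and 2.33 RPKM at 9.0 h and 2.15, 2.60 and 2.12 RPKM at 1.5 h. Its share of the RPKM of the pair was 4.56%, 6.50% and 4.33% at 9.0 h, against 3.41%, 2.79% and 3.51% at 1.5 h, without overlap. No other member had at least 200 nt at 95% identity or more in another gene, except Csf1r, whose exons overlap those of Hmgxb3 on the opposite strand over 873 nt. Cx3cr1 overlaps the antisense gene Gm33858. The strand setting of the counting is not given in the sources used here, so reads in these overlaps cannot be told apart.

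All 10 members were measured above the filter used for testing, at least 1 RPKM in 3 or more libraries, and none was below 1 RPKM in any library. None passed the test across all genes. In limma's model on log2(RPKM + 0.1), 0 of 10 members passed a Benjamini-Hochberg adjusted p of 0.05, against 0.222% of all 13490 tested genes (0.148% higher and 0.0741% lower at 9.0 h). At an unadjusted p of 0.05, C1qa and Lyz2 passed, 2 of 10 members against 11.1% of all tested genes. The smallest adjusted p of a member was 0.359. Log2 fold changes of 9.0 h minus 1.5 h ran between −0.45 and 0.35, with a median of 0.06 beside −0.003 over all tested genes, and 7 were above 0 and 3 below. In RPKM, libraries of the times did not overlap for C1qa and Csf1r with higher values at 9.0 h, 2 of 10 members against 9.78% of tested genes. The same held for Lyz2 with lower values, 1 of 10 against 8.41%. A permutation test on a single gene cannot go below p = 0.1 with 3 libraries against 3.

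Levels per length spanned a wide range. Lyz2 was the most abundant member, with a mean of 60.0 RPKM over the 6 libraries, and was above C1qb (27.5 RPKM) in every library. C1qb was above C1qc (21.2 RPKM) in all 6 libraries, and C1qc was above C1qa (17.9 RPKM) in 5. Next came Tyrobp with 12.3 RPKM, whose range overlapped that of Csf1r (10.8 RPKM). Fcer1g and Cd68, at 7.59 and 7.56 RPKM, could not be ordered, since Fcer1g was the higher of the pair in 2 of 6 libraries. The microglial receptor Cx3cr1 and the cytosolic marker Aif1 had the lowest means, both 1.71 RPKM, and each was above the other in 3 libraries.

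**Figure D1:**
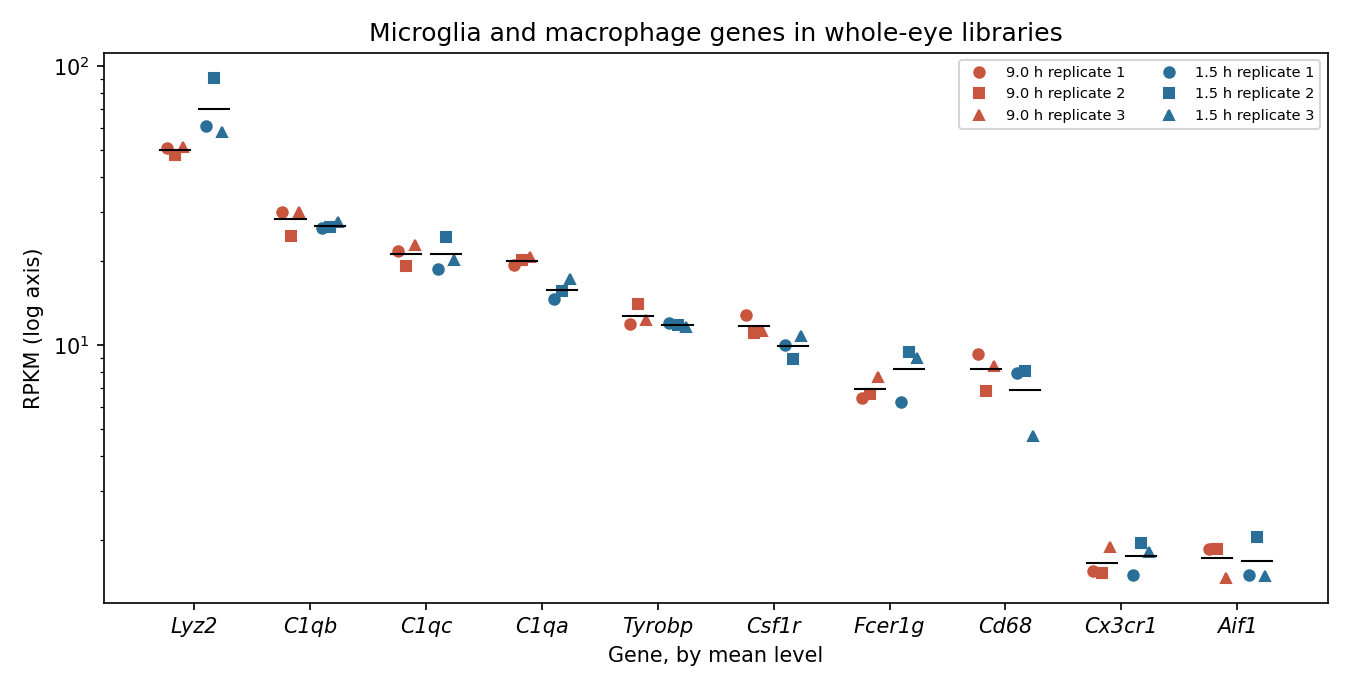
RPKM (log axis) of the 10 genes in each library, 9.0 h left and 1.5 h right for each gene, with bars at the mean of 3 libraries. Lyz2 lies at 47.8 to 51.5 RPKM at 9.0 h and at 58.2 to 90.6 RPKM at 1.5 h, and most other genes overlap between the times.

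The 3 chains of C1q, which join in equal numbers in the mature protein, gave no call, and only C1qa had times that did not overlap in RPKM. C1qa, the A chain, had 19.4, 20.1 and 20.7 RPKM in 9.0 h replicates 1 to 3, against 14.6, 15.6 and 17.2 RPKM at 1.5 h. Every 9.0 h library was above every 1.5 h library in RPKM. With each library scaled to the same RPKM sum (the TPM scale), 1.5 h replicate 1 lay above 9.0 h replicate 2, so the times overlapped. The mean was 20.1 ± 0.689 RPKM at 9.0 h and 15.8 ± 1.33 RPKM at 1.5 h (SD, n = 3 each), a log2 fold change of 0.35 ± 0.13 (SE) that did not pass (limma adjusted p = 0.359). C1qb, the B chain, had 30.0, 24.7 and 30.0 RPKM at 9.0 h and 26.4, 26.4 and 27.5 RPKM at 1.5 h. Its 9.0 h values lie on both sides of the 1.5 h values, and the log2 fold change was 0.07 ± 0.13 (limma adjusted p = 0.887). C1qc, the C chain, had 21.7, 19.1 and 22.9 RPKM at 9.0 h and 18.8, 24.5 and 20.1 RPKM at 1.5 h. The times overlapped, with a log2 fold change of 0.02 ± 0.15 (limma adjusted p = 0.983). The 95% intervals of the last pair, −0.23 to 0.37 for C1qb and −0.31 to 0.34 for C1qc, leave room for differences of up to about that size in either direction.

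Within a library, C1qa was a larger part of C1q RNA in each 9.0 h library than in any 1.5 h library. It made up 27.2%, 31.5% and 28.2% of the summed C1q RPKM at 9.0 h, against 24.4%, 23.5% and 26.5% at 1.5 h, and the times did not overlap. The ratio of C1qa to C1qb was 0.717 ± 0.0882 at 9.0 h and 0.589 ± 0.0365 at 1.5 h, and that of C1qa to C1qc 0.948 ± 0.0891 at 9.0 h and 0.756 ± 0.111 at 1.5 h (SD, n = 3 each). These ratios do not depend on how libraries are scaled. They were picked after the values had been seen and were not tested. Summed over the chains, C1q had 71.1, 63.9 and 73.7 RPKM at 9.0 h and 59.7, 66.5 and 64.9 RPKM at 1.5 h, which overlap.

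Among the receptors, Csf1r, which binds the growth factors Csf1 and Il34, had 12.8, 11.1 and 11.2 RPKM at 9.0 h and 10.0, 8.91 and 10.8 RPKM at 1.5 h. The groups did not overlap in RPKM, but 1.5 h replicate 3 lay just below the 9.0 h libraries. On the TPM scale 1.5 h replicates 1 and 3 lay above 9.0 h replicates 2 and 3, so the times overlapped. The mean was 11.7 ± 0.962 RPKM at 9.0 h and 9.90 ± 0.940 RPKM at 1.5 h (SD, n = 3 each), with a log2 fold change of 0.24 ± 0.14 (SE; limma adjusted p = 0.586). Cx3cr1, the receptor for the neuronal chemokine Cx3cl1, had 1.55, 1.53 and 1.89 RPKM at 9.0 h and 1.51, 1.96 and 1.81 RPKM at 1.5 h. The times overlapped, and the log2 fold change was −0.08 ± 0.19 (limma adjusted p = 0.912). The fewest reads, about 106, were in 1.5 h replicate 3.

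The adaptors Tyrobp (DAP12) and Fcer1g carry no ligand-binding part of their own and signal for partner receptors through phosphorylated tyrosines. Tyrobp had 11.9, 14.0 and 12.3 RPKM at 9.0 h, against 11.98, 11.78 and 11.64 RPKM at 1.5 h. The 1.5 h libraries were nearly level and 9.0 h replicate 2 was the highest, with a log2 fold change of 0.11 ± 0.13 (SE; limma adjusted p = 0.816). Fcer1g, also the signalling chain of the IgE receptor on mast cells, had 6.48, 6.69 and 7.69 RPKM at 9.0 h and 6.28, 9.42 and 8.97 RPKM at 1.5 h. Here 1.5 h replicate 1 was below every 9.0 h library while replicates 2 and 3 were above them, and the log2 fold change was −0.22 ± 0.18 (limma adjusted p = 0.709). On the TPM scale both adaptors were below 0, at −0.11 for Tyrobp and −0.44 for Fcer1g. The median of all tested genes there was −0.22, so Tyrobp lay above it and Fcer1g below.

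Cd68, a glycoprotein of the macrophage lysosome, had 9.33, 6.87 and 8.43 RPKM at 9.0 h and 7.92, 8.09 and 4.71 RPKM at 1.5 h. The value of 1.5 h replicate 3 stood apart below the rest, from about 75 reads, for which counting alone gives a relative error of 11.5%. The log2 fold change was 0.28 ± 0.22 (SE; limma adjusted p = 0.699), and 0.02 without 1.5 h replicate 3, the library with the high blood markers and the Y-linked reads. The part of those in the Cd68 value was not tested. Aif1 (Iba1), an actin-binding protein and the usual stain for microglia, had 1.86, 1.85 and 1.47 RPKM at 9.0 h and 1.50, 2.06 and 1.49 RPKM at 1.5 h. These rest on 17 to 52 reads a library, and the log2 fold change was 0.05 ± 0.20 (limma adjusted p = 0.956).

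Lyz2, the lysozyme of macrophages and neutrophils, had 50.9, 47.8 and 51.5 RPKM at 9.0 h, against 61.0, 90.6 and 58.2 RPKM at 1.5 h. The 9.0 h libraries lay close together and below all 1.5 h libraries, of which replicate 2 was far above the others. The mean was 50.1 ± 1.97 RPKM at 9.0 h and 69.9 ± 18.0 RPKM at 1.5 h (SD, n = 3 each), a log2 fold change of −0.45 ± 0.18 (SE) that did not pass (limma adjusted p = 0.382). Without 1.5 h replicate 2 the log2 fold change was −0.25 (limma adjusted p = 0.501). Without 1.5 h replicate 1 it was −0.54 and passed (limma adjusted p = 0.0156), in a fit in which 9.11% of all tested genes passed. In the other leave-one-out fits no member passed, against 0.0224%, 0.0598% and 0.0149% of tested genes without 9.0 h replicates 1 to 3, 0.344% without 1.5 h replicate 2 and 0.0748% without 1.5 h replicate 3.

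S100a9, a neutrophil calcium-binding protein, was high with Lyz2 in 1.5 h replicate 2: it had 3.21, 3.32 and 3.06 RPKM at 9.0 h and 4.02, 13.2 and 3.45 RPKM at 1.5 h. The 12 neutrophil markers in the files summed to 13.8 to 15.4 RPKM at 9.0 h, and to 13.3, 22.0 and 9.51 RPKM in 1.5 h replicates 1 to 3. Without S100a9 the other 11 summed to 10.6, 11.1 and 12.3 RPKM at 9.0 h and to 9.32, 8.80 and 6.05 RPKM at 1.5 h. So 1.5 h replicate 2 was high in S100a9 and not in their sum. Of the 8.80 RPKM there, Ltf, lactoferrin, gave 3.23 RPKM and Mmp9, a gelatinase, 3.57 RPKM, so the sum mostly follows these genes. S100a8, the partner of S100a9 and named after its values were seen, had 0.720, 1.52 and 2.01 RPKM at 9.0 h and 0.703, 0.600 and 0.586 RPKM at 1.5 h. Of the 12 markers 3 passed the filter and none was called. The log2 fold changes of these 3 were −0.81 for S100a9, 0.44 for Mmp9 and 0.76 for Ltf. Without 1.5 h replicate 2 that of S100a9 was −0.22, and without 1.5 h replicate 3 that of Ltf was 0.15. The granule genes Mpo, Elane, Ngp and Mmp8 were at or below 0.057 RPKM in every library, but other markers of the list were not. Camp, also a granule gene, had 0.157, 0.332 and 0.208 RPKM at 9.0 h and 0.287, 0.524 and 0.640 RPKM at 1.5 h. Csf3r had 0.372, 0.314 and 0.271 RPKM at 9.0 h and 0.470, 0.326 and 0.205 RPKM at 1.5 h. Retnlg, another of the markers and named after its values were seen, was low too. It had 0.206, 0.218 and 0.205 RPKM at 9.0 h and 0.0566, 0.516 and 0 RPKM at 1.5 h, highest in 1.5 h replicate 2. The cytokine gene Il1a, named after its values were seen, was also high in that library, with 1.29, 1.61 and 1.32 RPKM at 9.0 h and 1.69, 5.68 and 2.06 RPKM at 1.5 h. The part of these in the Lyz2 value was not tested.

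**Figure D2:**
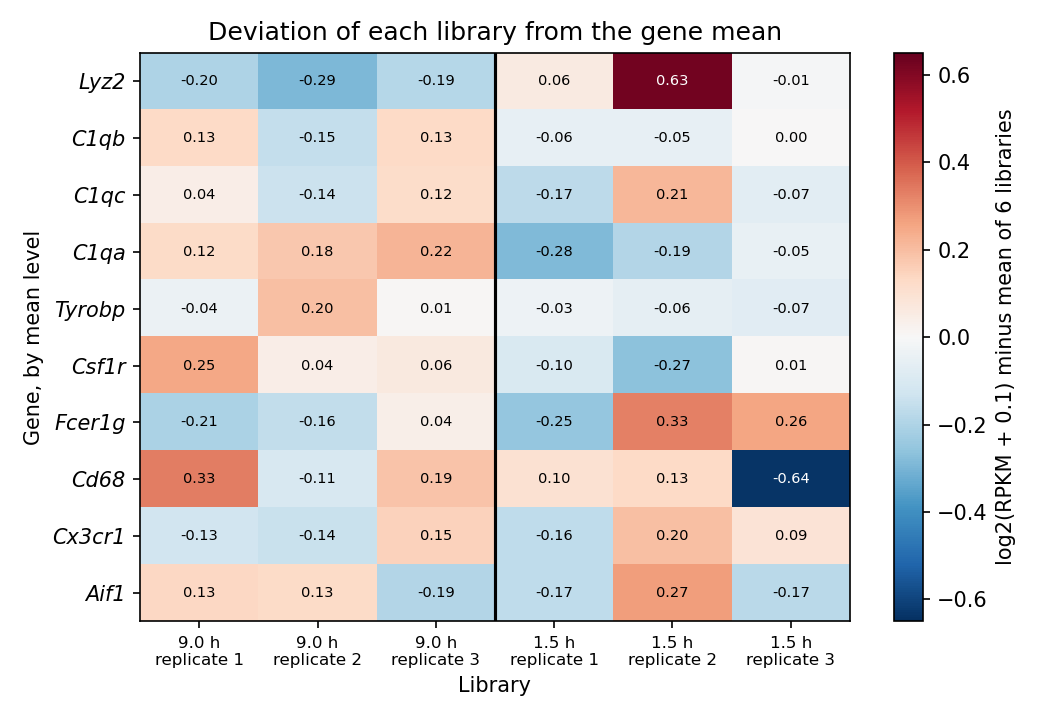
Deviation of each library from the mean of the gene over 6 libraries, as log2(RPKM + 0.1), with 9.0 h libraries left of the line and 1.5 h libraries right. Lyz2 stands at 0.63 in 1.5 h replicate 2 and Cd68 at −0.64 in 1.5 h replicate 3, and C1qa is above its mean in each 9.0 h library.

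Averaged over the 10 genes, the deviations were 0.04, −0.05 and 0.05 at 9.0 h and −0.11, 0.12 and −0.07 at 1.5 h on the log2 scale, while the SD between the genes within a library was 0.13 to 0.27. Residual spread within times was small for Tyrobp and C1qa, lower than in all but 5.90% and 6.44% of tested genes, and large for Cd68, above that of 86.8%. The tested genes outside the group whose centred log2 values lay nearest to the mean course of the members were Ing1, Arfgap3, Gpatch1, Xaf1 and Ppapdc1b, with root mean square differences of 0.031 to 0.034 over the 6 libraries, out of 13480 genes ranked. Ing1 had 13.5, 13.4 and 13.6 RPKM at 9.0 h and 12.1, 14.8 and 12.7 RPKM at 1.5 h. C1qc was the member nearest to that mean course, at 0.066.

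Since each member is measured in the same library, ratios between them do not depend on the scaling. Of 45 pairs, 11 had ratios that did not overlap between the times, and each of these held Lyz2 or C1qa: 7 held Lyz2 and 5 held C1qa, with the pair of both counted under each. C1qa over Lyz2 was 0.381, 0.421 and 0.403 at 9.0 h, against 0.239, 0.172 and 0.296 at 1.5 h. C1qb over Lyz2 was 0.563 ± 0.0409 at 9.0 h and 0.399 ± 0.0953 at 1.5 h, and Csf1r over Lyz2 was 0.233 ± 0.0170 at 9.0 h and 0.149 ± 0.0453 at 1.5 h (SD, n = 3 each). Cx3cr1 and Fcer1g were the members whose ratio to Lyz2 overlapped between the times. Pairs share genes, and Lyz2 and C1qa on their own did not overlap between the times in RPKM, in opposite directions. The share of such ratios over pairs of all tested genes was not computed, so these counts are a description. Lyz2 made up 30.7%, 31.1% and 30.6% of the summed RPKM of the members at 9.0 h and 38.1%, 45.5% and 35.8% at 1.5 h. Without it the remaining 9 summed to 115, 106 and 117 RPKM at 9.0 h and 98.9, 109 and 104 RPKM at 1.5 h, which overlap.

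**Figure D3:**
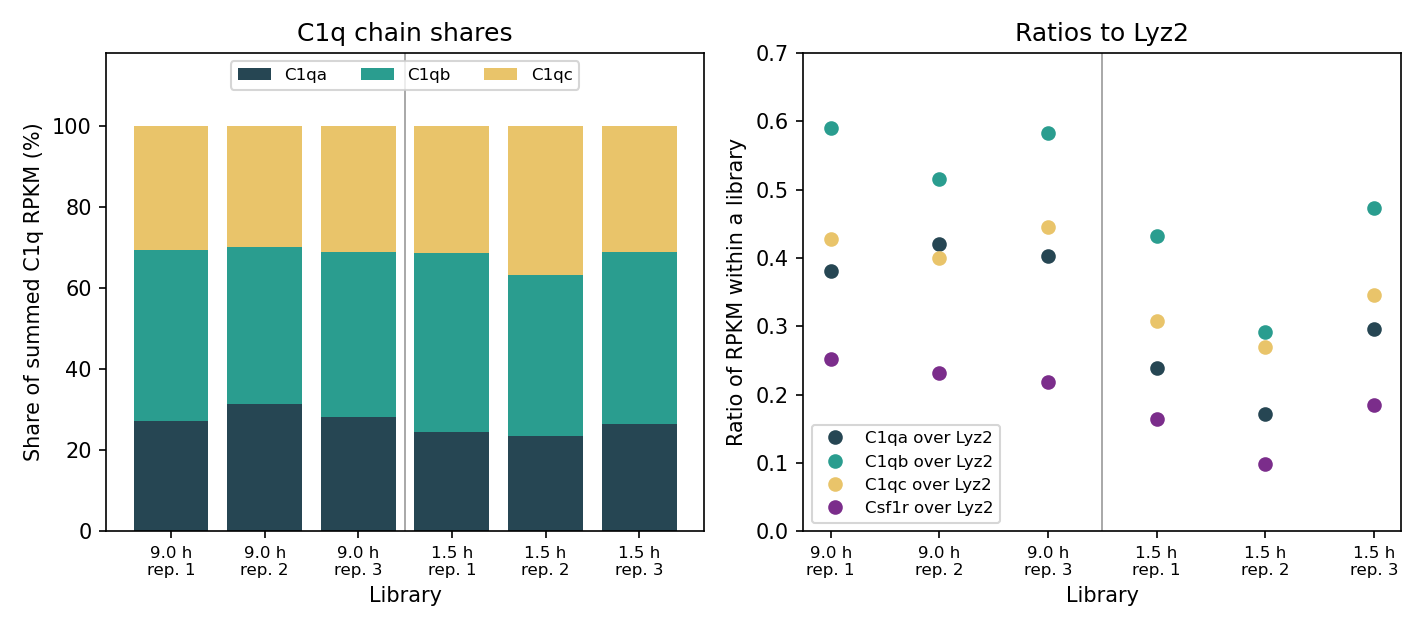
Left, share of each chain in the summed C1q RPKM of a library (%); right, RPKM ratios of C1q chains and Csf1r to Lyz2. The 9.0 h libraries, left of the line, hold 27.2% to 31.5% C1qa and the 1.5 h libraries 23.5% to 26.5%, and the 4 ratios to Lyz2 are higher in each 9.0 h library.

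**Figure D4:**
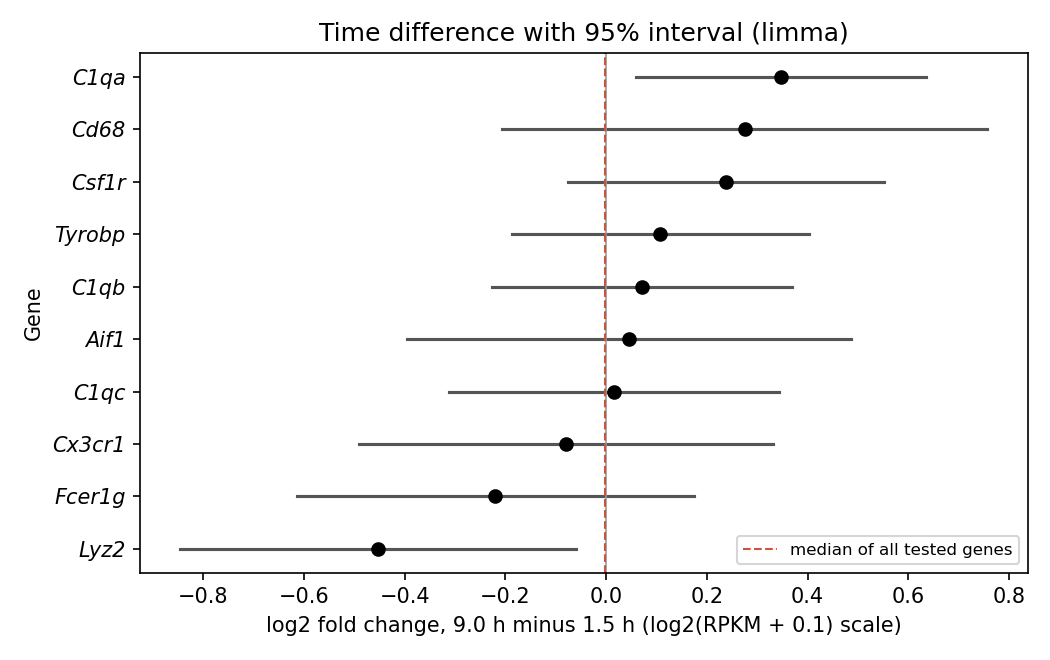
Log2 fold change of each member, 9.0 h minus 1.5 h, with its 95% interval from limma; the dashed line is the median of all tested genes. C1qa (0.06 to 0.63) and Lyz2 (−0.85 to −0.06) have intervals that leave out 0 before adjustment for multiple tests, and none of the 10 passes after it.

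Scaling shifted all genes together. When each library was scaled to the same RPKM sum (the TPM scale), the median log2 fold change of all tested genes was −0.22, and −0.11 when sums outside the lens markers were equalised. Relative to the median of all genes, C1qa stayed between 0.30 and 0.43, Csf1r between 0.13 and 0.32 and Lyz2 between −0.55 and −0.28 over the 16 alternatives and the reported fit. As plain values on the TPM scale, C1qa had 0.12, Csf1r 0.02 and Lyz2 −0.68, and Aif1, C1qb, C1qc and Tyrobp turned below 0. The medians of the lists described next move with this shift: on the TPM scale that of myeloid ligands and transcription factors was 0.08, of other microglia genes −0.13 and of other macrophage genes −0.37. Without 1.5 h replicate 1, where 9.11% of tested genes passed, the lens list had 2 calls, the neutrophil, red cell and retina lists had none, and the lists of other microglia, other macrophage, ligand, receptor, complement, lysosome, inflammatory, mast cell and dendritic cell genes had 1 each.

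Ligands and regulators of these cells were read from a list of 14 genes, of which 12 were tested and none was called (median 0.30). In RPKM, libraries did not overlap for 6 of the 12 with higher values at 9.0 h, against 9.78% of all tested genes, and for 1 with lower values, against 8.41%. Cx3cl1, the ligand of Cx3cr1, had 32.0, 28.6 and 29.6 RPKM at 9.0 h and 24.8, 20.7 and 25.8 RPKM at 1.5 h (log2 fold change 0.34, limma adjusted p = 0.397). The Csf1r ligands, shown for their link to a member after their values had been seen, also did not overlap in RPKM. Il34 had 6.12, 5.57 and 6.02 RPKM at 9.0 h and 3.92, 3.97 and 5.00 RPKM at 1.5 h (0.46, limma adjusted p = 0.307), and Csf1 had 4.95, 3.22 and 3.47 RPKM at 9.0 h and 3.10, 2.61 and 2.82 RPKM at 1.5 h (0.41, limma adjusted p = 0.457). On the TPM scale the 3 ligands had log2 fold changes of 0.12 (Cx3cl1), 0.24 (Il34) and 0.20 (Csf1), and for each of them the times overlapped. The other genes with the highest means were the transcription factors Maf (0.05) and Cebpb (0.48). Sfpi1, the files' name for Spi1, had 3.03, 2.51 and 2.33 RPKM at 9.0 h and 2.14, 3.06 and 3.62 RPKM at 1.5 h.

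Other microglia genes gave no call among 12 tested of 16 in the files (median 0.09). The secreted protein gene Olfml3 had 89.3, 74.4 and 79.9 RPKM at 9.0 h and 41.9, 62.2 and 65.1 RPKM at 1.5 h, without overlap (log2 fold change 0.55, limma adjusted p = 0.302). The lysosomal protease gene Ctss had −0.13. Of the more selective microglial genes, named after their values were seen, Tmem119 had 8.08 to 10.2 RPKM at 9.0 h and 6.50 to 10.3 RPKM at 1.5 h, and the purine receptor P2ry12 1.03 to 1.39 RPKM at 9.0 h and 0.501 to 1.57 RPKM at 1.5 h.

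Other macrophage and monocyte genes also gave no call, with 11 of 16 tested, 9 of them below 0 and a median of −0.15. Itgam, the integrin CD11b, had −0.15, the chemokine Pf4 −0.06 and the hyaluronan receptor Lyve1 0.07. Ms4a7, named after its values were seen, had 1.57, 1.55 and 1.24 RPKM at 9.0 h and 1.87, 3.27 and 2.21 RPKM at 1.5 h (log2 fold change −0.68, limma adjusted p = 0.291), and like Lyz2 it was highest in 1.5 h replicate 2. Emr1, which encodes the F4/80 antigen, had 1.62 to 2.27 RPKM at 9.0 h and 1.78 to 3.26 RPKM at 1.5 h.

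Of receptors and enzymes that signal with Tyrobp and Fcer1g, 5 of 15 in the files were tested and none was called (median −0.03). The IgG receptors Fcgr3 and Fcgr2b had log2 fold changes of 0.10 and −0.07, the phosphatase Ptpn6 −0.03 and Trem2 −0.14. The largest was that of Plcg2, with 0.58 (limma adjusted p = 0.357), which passed without 1.5 h replicate 1 (limma adjusted p = 0.0378). Trem2, a lipid receptor that pairs with Tyrobp, had 2.77, 2.01 and 2.74 RPKM at 9.0 h and 2.44, 3.68 and 2.32 RPKM at 1.5 h, a gene named after its values were seen. Complement partners of C1q gave no call among 15 tested of 18 (median 0.01), with 0.01 for Calr, a chaperone that also binds C1q, 0.17 for Serping1, the C1 inhibitor, and −0.11 for Cd59a, which blocks the terminal pore. The proteases that complete the C1 complex, added after their values were seen, had 7.50, 5.79 and 7.07 RPKM (C1ra) and 15.1, 13.7 and 12.5 RPKM (C1s) at 9.0 h. At 1.5 h, C1ra had 3.79, 6.59 and 4.30 RPKM and C1s 10.0, 12.3 and 11.9 RPKM (limma adjusted p = 0.415 for C1ra and 0.538 for C1s).

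Lysosome genes that macrophages use gave no call among 12 tested (median 0.04, from −0.30 for Lamp2 to 0.51 for Grn). Ctsd, Psap and Ctsl, which encode a protease, a lipid-hydrolase activator and a protease, had log2 fold changes of 0.28, 0.01 and −0.04. At levels of 168 to 426 RPKM in the 9.0 h libraries for the 4 most abundant, these genes are far above the members and are made by many eye cells. Of 15 inflammatory genes 4 were tested and none was called (median −0.01), with 0.24 for Nfkbia, an inhibitor of NF-kB, −0.04 for Lcn2 and 0.02 for Socs3. The fourth, Il1a, had −0.91 (limma adjusted p = 0.403), and −0.39 without 1.5 h replicate 2. Without 1.5 h replicate 1, Il1a had −1.24 and passed (limma adjusted p = 1.5e-06). The cytokine genes Tnf, Il1b and Il6, named after their values were seen, were at most 1.26 RPKM at 9.0 h and 2.18 RPKM at 1.5 h.

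The members summed to 154 to 168 RPKM at 9.0 h and 160 to 199 RPKM at 1.5 h. The sums of T, NK, B and mast cell markers were low beside this, over lists of other sizes. The 10 T and NK cell markers summed to 1.34 to 2.11 RPKM at 9.0 h and 1.18 to 1.62 RPKM at 1.5 h, and the 6 B cell markers to 1.01 to 1.40 RPKM at 9.0 h and 0.741 to 1.26 RPKM at 1.5 h, with none tested. The T cell receptor genes Cd3d, Cd3e and Cd3g were at or below 0.144 RPKM in every library, and the B cell gene Ms4a1 at or below 0.129 RPKM. The 8 mast cell and basophil markers summed to 18.1 to 20.6 RPKM at 9.0 h and 16.5 to 22.7 RPKM at 1.5 h, 6 were tested and none was called (median −0.09). Of these Kit, which other eye cells also make, had 0.04, and the mast cell proteases Mcpt4 and Cma1 had 0.55 and −0.22. Gene by gene, the means of Mcpt4 and Cma1, 3.47 and 3.16 RPKM, were above those of Aif1 and Cx3cr1, both 1.71 RPKM. Those of Cpa3 and Fcer1a, 1.63 and 0.220 RPKM, were below. The basophil and mast cell receptor chain Ms4a2, a partner of Fcer1g, was at or below 0.066 RPKM in every library. Dendritic cell markers summed to 79.2 to 106 RPKM at 9.0 h and 64.4 to 86.9 RPKM at 1.5 h, nearly all from the antigen presentation genes Cd74 (0.22), H2-Aa (0.38) and H2-Ab1 (0.23), and none of 4 tested was called (median 0.22). Red cell and platelet markers had 3 tested and none called (median −0.07), with 0.10 for Beta-s, −0.07 for Alas2 and −0.16 for Itga2b. These have no stable direction: without 1.5 h replicate 3 Beta-s had 1.08 and Alas2 0.65, without 1.5 h replicate 1 they had −0.48 and −0.37 and Itga2b 0.01, and on the TPM scale Beta-s had −0.13. Lens markers had a median of 0.42 and retina markers of −0.04, with none called of 16 and 12. On the TPM scale these medians were 0.19 and −0.27, and after quantile normalization 0.07 and −0.24. The abundant Crybb2, Cryaa and Crygc had −0.09, 0.78 and 0.57, and Gnat1 and Sag −0.36 and −0.11. The part of these cell markers in the values of the members was not tested.

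**Figure D5:**
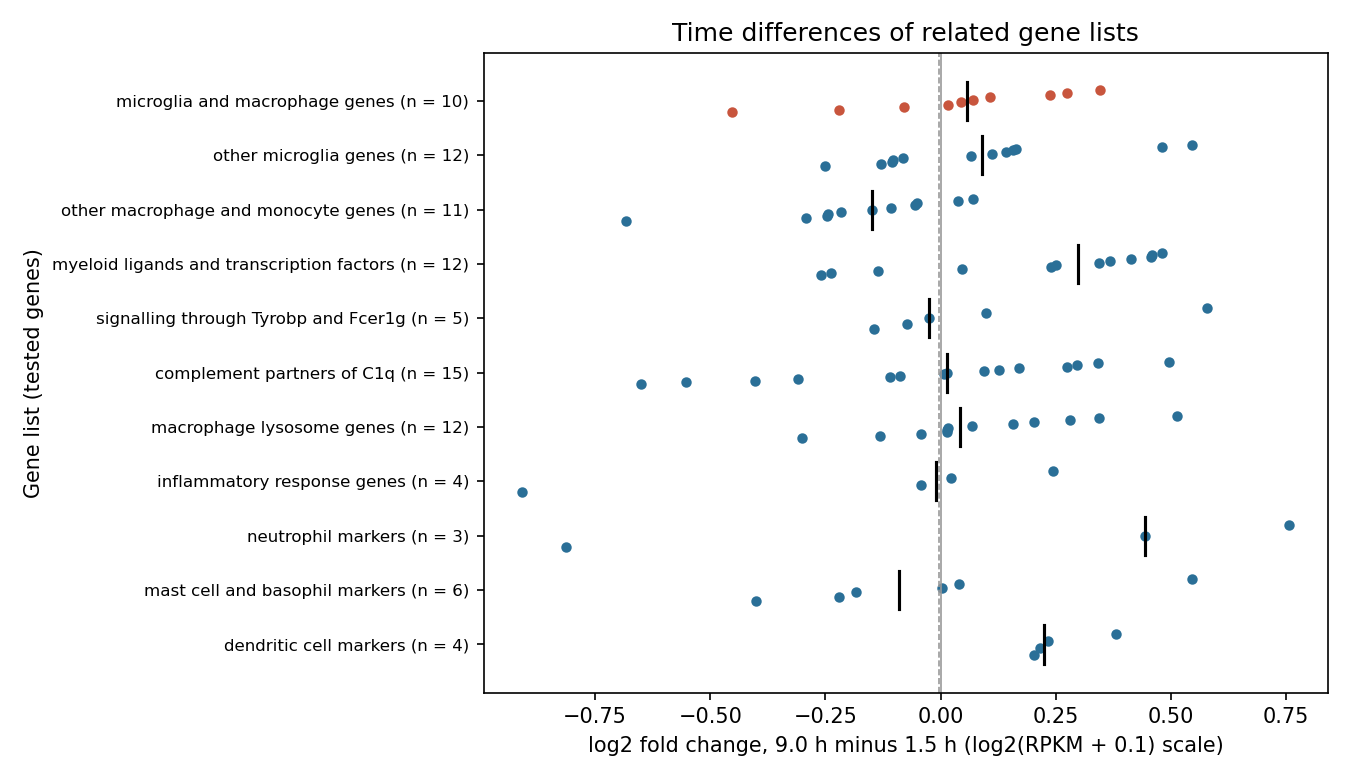
Log2 fold changes, 9.0 h minus 1.5 h, of tested genes in the microglia and macrophage group (top) and in 10 related lists, with a black bar at each median; n is the number of tested genes. The members lie between −0.45 and 0.35, myeloid ligands and transcription factors have a median of 0.30, and other macrophage genes −0.15.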

How the data were processed

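Whole-eye RNA was sequenced in 6 libraries of pooled mice. The authors deposited 1 table of RPKM values per library; the unit was inferred from the values. GSNAP, HTSeq and mouse build mm9 are listed in the submitters' processing notes. Their versions, the annotation and the strand setting are not known here. Low RPKM times the transcript length (GENCODE M21, 4288 genes of single length) fell within 0.1 read of whole numbers in 68.8% to 71.9% of cases, against 8.28% to 16.1% at other steps, which gave approximate total reads; reads per gene use the longest transcript.

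Times were compared as 9.0 h minus 1.5 h with limma 3.58.1 in R 4.3.3 (eBayes, trend and robust) on log2(RPKM + 0.1), keeping genes that reached 1 RPKM in 3 libraries, with Benjamini-Hochberg adjustment over all tested genes, two-sided. Fold changes on this scale understate the change of low genes. Copies were sought with blastn 2.17.0. The members and lists were chosen with earlier results of these data known. Named genes were all members, the 3 most abundant genes of each list, and the 5 genes nearest in course. Some genes that this rule names are not reported here. Alternatives covered the pseudocount, filter, scaling, moderation, the replicate block and each library left out.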

Additional observations from a re-analysis of the deposited data

How the results depend on the processing

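Over 16 alternatives no member passed, except Lyz2 without 1.5 h replicate 1 (limma adjusted p = 0.0156); members passing ranged from 0 to 1 with a library left out. Lyz2, C1qa, Csf1r, Cd68, Fcer1g and Cx3cr1 kept their sign in every alternative that tested them. The median of the members was −0.16 on the TPM scale and −0.052 with sums outside the lens equalised, and 0.0048 to 0.12 with a library left out. On the TPM scale Aif1, C1qb, C1qc and Tyrobp had −0.17, −0.15, −0.21 and −0.11, and with lens genes left out of the sums −0.061, −0.042, −0.098 and −0.0050. C1qc had −0.021 after quantile normalization. With a library left out Aif1 ran between −0.030 and 0.19 and C1qc between −0.066 and 0.13. The cause was not tested.

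Calls over all genes, 30 as reported, were 19 at a filter of 5 RPKM, 15 after quantile normalization, 18 after median centring and 2 to 1219 with a library left out (1219 without 1.5 h replicate 1). With the replicate number as a block 141 genes and no member passed. Same-numbered libraries had correlations of deviations of 0.35, 0.48 and −0.21, and different-numbered ones −0.54 to 0.23. With 3 libraries per time these values cannot decide whether the numbers pair the libraries. The reported fit did not treat them as pairs. Depth limits Aif1 most, with 17 reads in its shallowest library; intervals from reads cover counting error only.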
